A study of Mus musculus with 13 samples.

Results

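The genes described here are 31 members of the MHC antigen presentation machinery, 17 of class II and 14 of class I. They were chosen by gene symbol, not by a measured value, from the 23336 symbols with complete counts, and all 31 have a row. RNA was sequenced from mouse splenic B cells in 13 libraries, and reads were counted per gene. Controls were Regnase-1+/+ hCD20TamCre and deficient cells Regnase-1 f/f hCD20TamCre, so every group carried the Cre transgene and only the deficient groups carried floxed alleles of Regnase-1 (gene Zc3h12a), an RNase that degrades messenger RNAs. Cells were either naive and untreated (4 control and 3 deficient libraries) or treated through the B cell receptor (BCR) with anti-IgM F(ab')2 for 4 h (3 libraries per genotype). The transgene's Cre is a tamoxifen-inducible form driven by the human CD20 promoter, which is active in B cells. Tamoxifen dosing, age and sex of the mice, and the culture of the untreated cells are not given in the sources used here. Same-numbered libraries of a genotype are called an animal below, on a check of their values and not on a label.

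MHC class II molecules are pairs of an alpha and a beta chain that show peptides from endocytosed proteins to CD4+ T cells. The invariant chain (Cd74) occupies the groove on the way to the endosome, proteases such as cathepsin S (Ctss) and legumain (Lgmn) trim it and the antigen, and H2-DM (H2-DMa with H2-DMb1 or H2-DMb2) exchanges the remnant for peptide. H2-DO (H2-Oa with H2-Ob), found mainly in B cells and the thymus, holds H2-DM back. Class II genes are switched on by the coactivator Ciita, which docks on the RFX proteins (Rfx5, Rfxap, Rfxank). Class I molecules pair a heavy chain (H2-K1, H2-D1) with B2m and show cytosolic peptides to CD8+ T cells. Tap1 and Tap2 pump those peptides into the endoplasmic reticulum, Erap1 trims them, Tapbp and Tapbpl edit them, and Nlrc5 is the class I counterpart of Ciita.

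Each library held 21407724 to 33244755 counts, so 3 counts stood for 0.0902 to 0.140 CPM. CPM are counts scaled to each library's total, so that libraries of different depth can be compared. Regnase-1 mRNA ranged from 121 to 131 CPM in control cells and from 89.2 to 111 CPM in deficient cells before stimulation. After anti-IgM the ranges were 147 to 157 and 92.6 to 112 CPM. By the edgeR test used below, the unstimulated difference was not called (log2 -0.32 ± 0.07 SE, adjusted p = 0.106). The stimulated difference was called (log2 -0.58 ± 0.08, edgeR adjusted p = 0.000784). Counts cover the whole gene, so they do not measure the deleted part alone. All 10 B cell markers examined (such as Cd79a and Ms4a1) were present, with a summed level of 6304 to 7414 CPM in unstimulated and 3369 to 3686 CPM in stimulated libraries. Of the myeloid markers, 11 of 12 had a row and summed to 157 to 527 CPM unstimulated and 87.8 to 205 CPM stimulated. All 11 dendritic cell markers had one, and these summed to 55.0 to 105 CPM unstimulated and 81.7 to 137 CPM stimulated. Markers of T cells (9 of 9 with a row), NK cells (6 of 6) and platelets (4 of 4) each summed to at most 57.4 CPM in any library. Neutrophil markers (8 of 9) summed to 18.4 to 242 CPM, plasma cell and B-1 markers (5 of 7) to 98.4 to 207 CPM, and stromal markers (5 of 5, mostly Pecam1) to 32.4 to 292 CPM. Deficient animal 1 stood apart in both states. Its 2 libraries had the highest sums of the erythroid markers with a row (6 of 8), 1331 and 1209 CPM against 138 to 791 CPM elsewhere. Within the 7 unstimulated libraries it was the lowest for 12 of 17 class II and 8 of 13 class I members. Among the stimulated libraries it was the lowest for 8 of 17 class II and 4 of 13 class I members, and the highest for 3 of each class. Stimulated control library 2 was the lowest for 5 of 13 class I members. For the members, results that rest on deficient animal 1 are given with and without that animal.

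Of the 31 members, 30 passed the filter on low counts. H2-Q7 did not: it had 1 read in all 13 libraries together. H2-T22 passed at 11 to 33 counts per library. Both belong to families of near-identical genes, and their neighbours H2-Q6 and H2-T10 did receive reads, so the division of reads among these copies is uncertain.

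Promoter sequences from RefSeq (GRCm38.p6, 250 bases before to 50 after a gene's start) were found for 24 members, 13 of class II and 11 of class I. They are shown because class II genes that share promoter boxes moved in opposite directions after anti-IgM. Class II promoters carry an X box, bound by the RFX complex, upstream of a Y box, bound by NF-Y. The X box core was searched as AACNNATG and the Y box as GATTGG, on both strands; the patterns do not overlap. The patterns were chosen after the windows were read, so the counts below are a description and not a test. Members are counted per gene and the background per window. The X box core was in 8.86% of all 32851 windows, in 6 of 13 class II members and 0 of 11 class I members. The Y box was in 16.1% of windows, in 10 of 13 class II and 8 of 11 class I members. An X box core 20 to 40 bases before a Y box occurred in 26 windows (0.0791%), and 5 of the 26 belong to class II members. The first 5 stretches below show those pairs in capitals, 5′ to 3′ on the gene's strand. H2-Aa is shown for contrast, with its Y box alone in capitals because its X region has other letters than the core searched.
H2-Eb1: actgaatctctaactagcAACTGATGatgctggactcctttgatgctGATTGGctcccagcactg
H2-Eb2: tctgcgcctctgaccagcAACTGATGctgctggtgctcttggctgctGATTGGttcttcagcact
H2-DMb1: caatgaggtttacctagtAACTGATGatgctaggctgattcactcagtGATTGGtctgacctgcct
H2-DMb2: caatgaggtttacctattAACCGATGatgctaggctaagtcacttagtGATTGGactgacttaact
H2-Ob: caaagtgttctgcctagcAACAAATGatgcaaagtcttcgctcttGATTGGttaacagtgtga
H2-Aa: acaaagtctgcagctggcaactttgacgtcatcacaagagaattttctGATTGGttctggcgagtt

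These stretches lie at chr17:34305760-34305824 (H2-Eb1, plus strand), chr17:34325527-34325591 (H2-Eb2, plus strand), chr17:34153081-34153146 (H2-DMb1, plus strand), chr17:34145110-34145175 (H2-DMb2, plus strand), chr17:34238802-34238864 (H2-Ob, plus strand) and chr17:34287855-34287920 (H2-Aa, minus strand). The X and Y boxes started 29 bases apart in H2-Eb1 and H2-Eb2, 30 in H2-DMb1 and H2-DMb2 and 27 in H2-Ob. All 6 stretches are upstream of the RefSeq start, and those of H2-DMb1 and H2-DMb2 lie inside the longer GENCODE models of these genes.

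The 2 classical class I heavy chain genes are shown because their promoters were near copies in the stretch printed, while H2-D1 was called lower after anti-IgM and H2-K1 was not by the same test. An NF-kB site was searched as GGGATTCCC and an interferon response element as TTTCNNTTC, also on both strands and also chosen after the windows were read. The NF-kB letters were in 0.353% of windows, among them those of H2-K1, H2-D1 and H2-Q7 and no other member. The interferon element was in 7.52% of windows, in 5 of 11 class I members (H2-D1, H2-K1, H2-Q4, H2-Q7, H2-M3) and in 1 of 13 class II members (Ctss). Capitals mark the NF-kB letters, the interferon element and, as CCAATC, a Y box on the opposite strand.
H2-K1: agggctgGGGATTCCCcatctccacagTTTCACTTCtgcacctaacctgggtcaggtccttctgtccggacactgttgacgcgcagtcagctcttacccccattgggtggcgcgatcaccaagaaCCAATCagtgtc
H2-D1: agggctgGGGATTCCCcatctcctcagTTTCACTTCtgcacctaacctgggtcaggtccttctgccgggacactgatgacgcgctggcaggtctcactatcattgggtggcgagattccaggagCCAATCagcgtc

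The H2-K1 stretch is chr17:34000328-34000464 on the minus strand, and its last 19 bases lie past the RefSeq start. The H2-D1 stretch is chr17:35262917-35263052 on the plus strand, upstream of the RefSeq start and inside the longer GENCODE model. A match to these letters is a description of the window, not evidence of a site in use.

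Levels of different genes were compared as CPM per kb of exon (GENCODE vM21). In unstimulated control cells Cd74 was the most abundant member, at 6411 ± 430.2 CPM per kb (SD, n = 4). B2m followed at 2708 ± 24.9, then the class II chains H2-Eb1 (981 ± 91.7), H2-Ab1 (795 ± 74.4) and H2-Aa (658 ± 74.8). The class I heavy chains H2-K1 (513 ± 11.5) and H2-D1 (501 ± 18.4) came next. Libraries of H2-Eb1 overlapped with those of H2-Ab1, those of H2-Ab1 with H2-Aa, and those of H2-K1 with H2-D1, so the order within these pairs is not separated by the spread. When the longest transcript was used as length, H2-Ab1 (1685) ranked above H2-Eb1 (1142), and H2-K1 (804) above H2-Aa (775). Regulators were among the rarer members. Ciita stood at 20.3, just above Tapbpl (17.2) and Erap1 (16.7), with Rfx5 at 9.55, Rfxap at 7.40, Rfxank at 7.30 and Nlrc5 at 5.60 CPM per kb. After anti-IgM Nlrc5 (10.8) stood close to Ciita (11.7) on this scale.

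**Figure D1:**
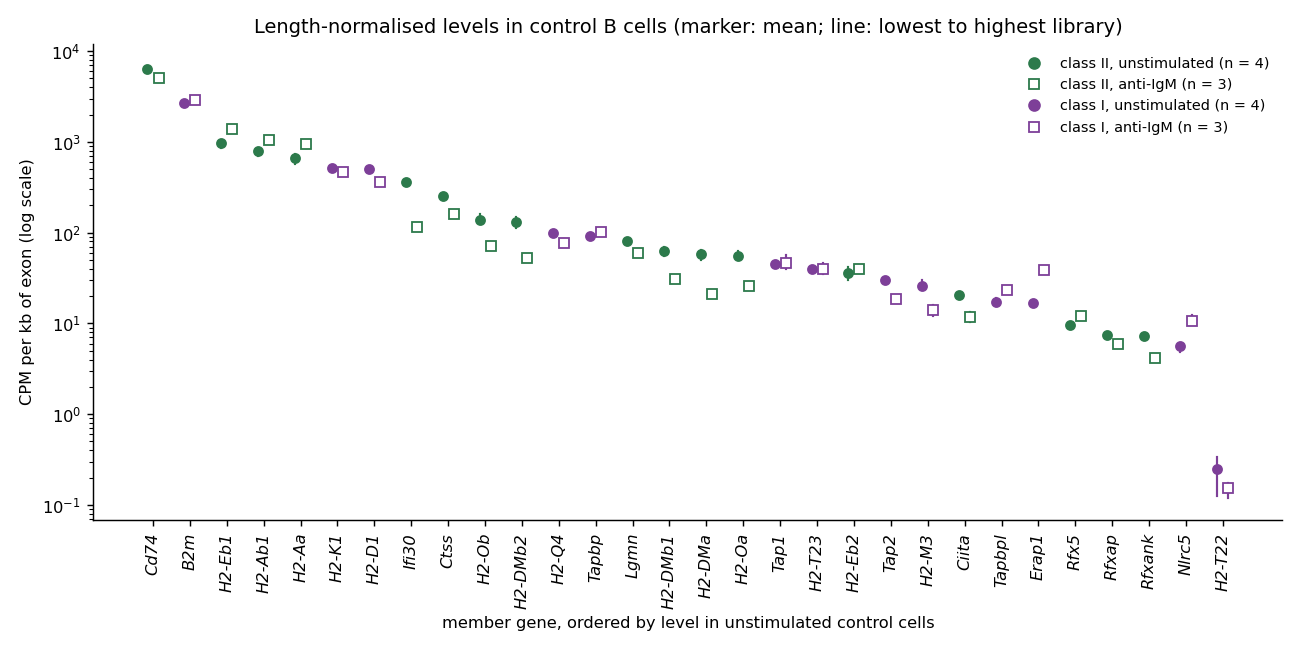
Level of each of the 30 tested members in control B cells, in CPM per kb of exon on a log axis, ordered by the unstimulated level; filled circles are unstimulated (n = 4), open squares anti-IgM (n = 3), lines run from the lowest to the highest library. Cd74 and B2m lead in both states, and the H2-DM and H2-DO genes drop while H2-Aa, H2-Ab1, H2-Eb1, Erap1 and Nlrc5 climb.

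The first question was how these genes differ between anti-IgM-treated and untreated control cells. Whether the untreated cells were also cultured for 4 h is not given. Any effect of culture therefore cannot be told apart from that of anti-IgM in either genotype. Almost all class II members changed and most of them fell, while class I members were split between rises, falls and no call. By edgeR's quasi-likelihood test at a Benjamini-Hochberg adjusted p under 0.05, 4 of 17 class II members rose, 12 fell and 1 (H2-Eb2) was not called. Of 13 tested class I members 3 rose, 4 fell and 6 were not called. The background was high: 60.3% of all 13574 genes tested were called, 28.5% higher and 31.8% lower. The states did not overlap for the same counts of members, 16 of 17 and 7 of 13, against 63.5% of all genes (29.7% higher, 33.8% lower). The median log2 change was -0.64 over class II members, 0.00 over class I members and -0.13 over all genes tested. In bulk RNA, fewer cells of a type and less RNA per cell cannot be told apart. Of the 10 B cell markers, 7 were lower and 3 higher after anti-IgM in control cells. Myeloid cells are another source of several class II members, and the summed myeloid markers went from 183 to 488 CPM in unstimulated to 101 to 205 CPM in stimulated control libraries; their part in the class II result was not tested.

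In deficient cells 2 of 17 class II members were higher, 11 lower and 4 not called. Of 13 class I members 4 were higher, 4 lower and 5 not called, against a background of 57.9% called (28.3% higher, 29.6% lower). The states did not overlap for 12 class II members (1 higher, 11 lower) and 8 class I members (5 higher, 3 lower), against 62% of all genes (30.1% higher, 31.9% lower). Medians were -0.38 for class II, 0.07 for class I and -0.11 for all genes. With the animal as a block, 17 class II members were called (4 higher, 13 lower), among them H2-Ab1, H2-Eb1, H2-Eb2 and Lgmn, which the unblocked test did not call. Both genotypes are shown side by side in the plot of stimulation responses.

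**Figure D2:**
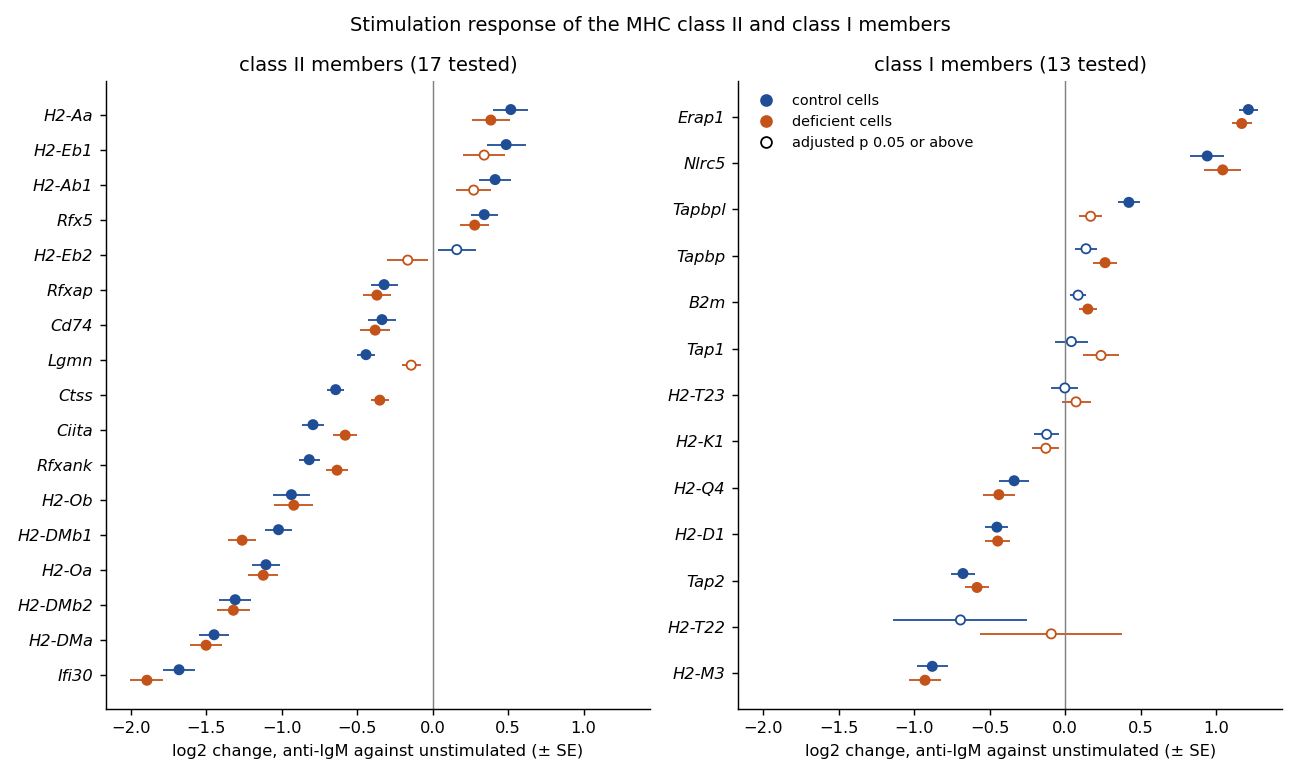
Log2 change (± SE) after anti-IgM of 17 class II (left) and 13 class I members (right), blue for control and orange for deficient cells; open circles did not pass an adjusted p of 0.05. Class II members spread from H2-Aa at 0.52 to Ifi30 at -1.68 in control cells, and class I members from Erap1 at 1.21 to H2-M3 at -0.88.

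The peptide-binding chains of class II rose in control cells. H2-Aa, the alpha chain of I-A, stood at 2806, 2656, 2353 and 2180.4 CPM in unstimulated control libraries 1 to 4 and at 3724, 3713 and 3293 CPM in stimulated libraries 1 to 3. The groups did not overlap, and H2-Aa rose 1.43-fold (log2 change 0.52 ± 0.12 SE, edgeR adjusted p = 0.00139). H2-Ab1, its beta chain partner, stood at 2207, 2168, 2007 and 1787 CPM unstimulated and 2729.8, 2744 and 2686 CPM stimulated, a rise of 1.33-fold (log2 0.41 ± 0.11, adjusted p = 0.00379). H2-Eb1, the beta chain of I-E, stood at 2051, 2034, 1873 and 1668 CPM and then at 2725, 2777 and 2512 CPM, 1.40-fold higher (log2 0.49 ± 0.13, adjusted p = 0.00527). Every stimulated control library lay above every unstimulated one for all 3 chains.

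In deficient cells the same chains overlapped between states, and animal 1 was the lowest in both. H2-Aa was 1877, 2548 and 2316 CPM in unstimulated deficient libraries 1 to 3 and 2508, 3141 and 3154 CPM after anti-IgM (log2 0.39 ± 0.12, adjusted p = 0.0165). That call was lost without unstimulated deficient library 1 (adjusted p = 0.0727) or stimulated deficient library 2 (0.0610) or 3 (0.0642). H2-Ab1 was 1541, 2097 and 1915 CPM and then 1896, 2376 and 2429 CPM (log2 0.27 ± 0.12, adjusted p = 0.0577). H2-Eb1 was 1420.3, 2023 and 1951 CPM and then 1875, 2393 and 2563 CPM (log2 0.34 ± 0.14, adjusted p = 0.0516). Each animal was higher after stimulation for each of these chains. With the animal as a block H2-Ab1 (adjusted p = 2.37e-05) and H2-Eb1 (adjusted p = 1.1e-06) were called, and without both libraries of animal 1 their adjusted p were 0.00119 and 0.000517.

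H2-Eb2, a second I-E beta gene whose printed promoter stretch carries the same X and Y letters as that of H2-Eb1, did not share the rise. It lay between 101 and 141 CPM in unstimulated and 127 and 146 CPM in stimulated control libraries (log2 0.16 ± 0.12, adjusted p = 0.292). In deficient cells it lay between 93.9 and 127 CPM and then 87.7 and 110.3 CPM (log2 -0.17 ± 0.13, adjusted p = 0.317, and 0.0071 with the animal as a block).

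Cd74 fell while the chains it escorts rose. It stood at 11635, 10963, 10545 and 9916 CPM in unstimulated and 8927, 8245 and 8409 CPM in stimulated control libraries, 1.26-fold lower (log2 -0.34 ± 0.09, adjusted p = 0.00493). In deficient libraries it was 8072, 10236 and 10169.8 CPM and then 6308, 7774 and 7776 CPM (log2 -0.38 ± 0.10, adjusted p = 0.00331). The highest stimulated library lay below the lowest unstimulated one in both genotypes. Per kb of exon, the ratio of Cd74 to the sum of H2-Aa, H2-Ab1 and H2-Eb1 was 2.41 to 2.78 in the 7 unstimulated libraries and 1.41 to 1.59 in the 6 stimulated ones.

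The peptide exchange genes H2-DM and their inhibitor H2-DO fell together. H2-DMa stood at 222, 214, 191 and 171 CPM unstimulated and at 78.2, 72.4 and 68.6 CPM stimulated in control cells, 2.73-fold lower (log2 -1.45 ± 0.10, adjusted p = 9.76e-09). In deficient cells H2-DMa went from 167, 203 and 188 CPM to 60.1, 72.7 and 64.1 CPM (log2 -1.50 ± 0.10). A wide gap separated the states in both genotypes. H2-DMb1 stood at 116, 109, 104 and 92.8 CPM and then at 54.9, 49.9 and 50.7 CPM in control cells (log2 -1.02 ± 0.09, adjusted p = 4.06e-08). In deficient cells H2-DMb1 was 91.9, 111 and 106 CPM and then 43.9, 45.9 and 38.6 CPM (log2 -1.26 ± 0.09, adjusted p = 8.08e-09). The other beta chain, H2-DMb2, fell by 1.31 ± 0.11 on the log2 scale in control and by 1.32 ± 0.11 in deficient cells.

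H2-Oa fell by 1.10 ± 0.10 in control and by 1.12 ± 0.10 in deficient cells on the log2 scale. H2-Ob fell by 0.94 ± 0.12 and 0.92 ± 0.13. Per kb, the ratio of H2-Oa to H2-DMa was 0.884 to 1.07 in unstimulated and 1.16 to 1.33 in stimulated libraries. The ratio of H2-DMa to H2-Aa was 0.0864 to 0.0977 in unstimulated and 0.0215 to 0.0264 in stimulated libraries, so the editor gene fell relative to the chain it acts on in each library. H2-DMb1, H2-DMb2 and H2-Ob, which fell, carry the X and Y boxes printed above, as does H2-Eb1, which rose in control cells. H2-DMa shares 360 exon bases with Brd2 and H2-Oa 321 with BC051537 on the opposite strand, and reads there cannot be assigned without a stated strand setting.

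**Figure D3:**
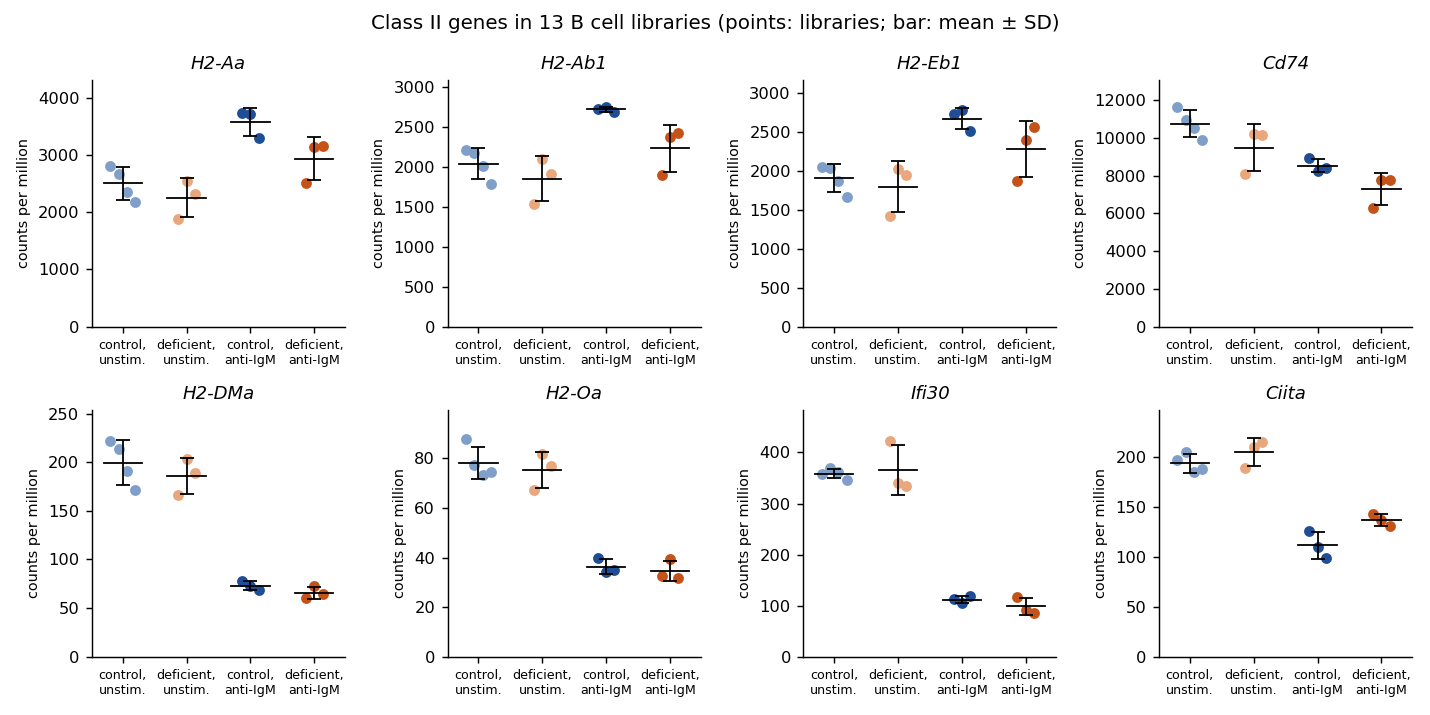
CPM of 8 class II genes in the 13 libraries by group (points, with mean ± SD as lines). After anti-IgM H2-Aa, H2-Ab1 and H2-Eb1 are higher in control cells, and Cd74, H2-DMa, H2-Oa, Ifi30 and Ciita are lower in both genotypes; the lowest H2-Aa point of each deficient group is animal 1.

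Ifi30 and Ctss, endosomal enzymes of class II processing, fell in both genotypes, and Lgmn fell in control cells. Ifi30, a thiol reductase that opens disulfide bonds of antigens, had the largest fall of all members. It stood at 358, 369, 361 and 346.5 CPM in unstimulated and 112, 105 and 119 CPM in stimulated control libraries, 3.21-fold lower (log2 -1.68 ± 0.10, adjusted p = 2.6e-09). In deficient cells Ifi30 was 422, 341 and 334.5 CPM and then 117, 92.5 and 86.3 CPM, 3.72-fold lower (log2 -1.89 ± 0.11, adjusted p = 1.62e-09). Ctss, a protease that trims the invariant chain, fell by 0.64 ± 0.06 on the log2 scale in control and by 0.35 ± 0.06 in deficient cells. Lgmn, an asparaginyl endopeptidase, fell by 0.44 ± 0.06 in control cells. In deficient cells its change was -0.14 ± 0.06 (adjusted p = 0.0687, and 0.0104 with the animal as a block). Myeloid cells also express these enzymes, and the ranges of the summed myeloid markers in the 2 states are given above. Ifi30 was highest in the library with the highest myeloid sum in 3 of the 4 groups: unstimulated deficient library 1 (422 CPM, myeloid sum 527 CPM), stimulated control library 3 (119 and 205 CPM) and stimulated deficient library 1 (117 and 198 CPM). In unstimulated control cells it was highest in library 2 (369 CPM), whose myeloid sum was 206 CPM against 488 CPM in library 3. The part of these cells in the falls was not tested.

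Among the regulators of class II, Ciita fell and the RFX subunits split. Ciita stood at 197, 205, 185 and 188 CPM unstimulated and at 126, 110.4 and 98.7 CPM stimulated in control cells, 1.73-fold lower (log2 -0.79 ± 0.08, adjusted p = 1.43e-07). In deficient cells Ciita was 189, 210.4 and 215 CPM and then 143, 137 and 131 CPM (log2 -0.58 ± 0.08, adjusted p = 9.88e-06). The states did not overlap in either genotype. Rfx5, the DNA-binding subunit, rose by 0.34 ± 0.09 in control and 0.28 ± 0.10 in deficient cells on the log2 scale. In deficient cells that call was lost without unstimulated library 1 (adjusted p = 0.108) or stimulated library 2 (0.0869). Rfxank fell by 0.82 ± 0.07 and 0.63 ± 0.07, and Rfxap fell by 0.32 ± 0.09 and 0.37 ± 0.10. Rfxank shares 1341 exon bases with Nr2c2ap, and Ciita 329 with Dexi, on the opposite strand.

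The class I heavy chains and B2m moved less than most of class II. H2-K1 stood at 1529.6, 1518, 1521 and 1456 CPM in unstimulated and 1316, 1368 and 1467 CPM in stimulated control libraries (log2 -0.12 ± 0.08, adjusted p = 0.226). H2-K1 was called lower with the animal as a block (adjusted p = 0.0115 in control and 0.0242 in deficient cells) and with upper-quartile scaling (0.0387 and 0.0308). Without unstimulated library 1 it was also called in deficient cells (log2 -0.22, adjusted p = 0.0314). In deficient cells H2-K1 was 1224, 1622 and 1387 CPM and then 1179.9, 1417 and 1275 CPM (log2 -0.13 ± 0.09, adjusted p = 0.240). The states overlapped in both genotypes.

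H2-D1 fell in both genotypes. It stood at 1326, 1312, 1308 and 1221 CPM unstimulated and 904, 936 and 992 CPM stimulated in control cells, 1.37-fold lower (log2 -0.45 ± 0.08, adjusted p = 8.57e-05). In deficient cells H2-D1 was 1038, 1323 and 1183 CPM and then 827, 940.3 and 833 CPM (log2 -0.45 ± 0.08, adjusted p = 0.000183). Per kb, H2-D1 to H2-K1 was 0.930 to 0.988 in the unstimulated and 0.744 to 0.798 in the stimulated libraries, with no overlap. The 2 genes are close in sequence, so shared reads may fall to either.

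B2m stood at 2339, 2354, 2318 and 2306 CPM in unstimulated and 2495, 2301 and 2619 CPM in stimulated control libraries (log2 0.09 ± 0.06, adjusted p = 0.195). In deficient cells it was 2026, 2226 and 2087 CPM and then 2286, 2374 and 2374 CPM, a rise of 0.15 ± 0.06 (adjusted p = 0.0398). That call was lost with upper-quartile scaling (log2 0.06, adjusted p = 0.345), with no filter (0.0798), with the stricter filter (0.0517), with only the groups compared (0.0933) and without any 1 of unstimulated deficient libraries 1 and 3 and stimulated deficient libraries 2 and 3 (adjusted p 0.0963 to 0.105). The ratio of B2m to the summed heavy chains per kb was 2.43 to 2.88 in unstimulated and 3.23 to 3.68 in stimulated libraries.

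Among the non-classical heavy chains of the 31 members H2-M3, which presents formylated peptides, fell most. H2-M3 stood at 43.2, 34.4, 36.7 and 34.8 CPM unstimulated and 20.7, 17.2 and 22.7 CPM stimulated in control cells, 1.84-fold lower (log2 -0.88 ± 0.10, adjusted p = 1.35e-06). In deficient cells it was 35.4, 36.9 and 34.0 CPM and then 18.7, 19.6 and 17.6 CPM (log2 -0.93 ± 0.11, adjusted p = 1.62e-06). H2-Q4 fell by 0.34 ± 0.10 in control and 0.44 ± 0.11 in deficient cells. H2-T23 (Qa-1) was 107 to 123 CPM in unstimulated and 101 to 135 CPM in stimulated control libraries, and its log2 change was 0.00 ± 0.09. H2-T22 changed by -0.69 ± 0.44 and -0.09 ± 0.47, with standard errors too wide to place it.

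The peptide transporter subunits parted. Tap2 stood at 118, 112, 113 and 111 CPM in unstimulated and 69.3, 69.8 and 74.2 CPM in stimulated control libraries, 1.60-fold lower (log2 -0.68 ± 0.08, adjusted p = 1.43e-06). In deficient cells Tap2 was 108, 125 and 123 CPM and then 89.9, 79.5 and 68.9 CPM (log2 -0.58 ± 0.08, adjusted p = 1.48e-05). Tap1 was not called: it was 238 to 259.7 CPM and then 219.5 to 308 CPM in control cells (log2 0.04 ± 0.11, adjusted p = 0.768). Per kb, Tap2 to Tap1 was 0.631 to 0.739 in unstimulated and 0.350 to 0.461 in stimulated libraries. Tap1 was highest in control library 3 and deficient library 1 (308 and 318 CPM), the stimulated libraries with the highest summed interferon response genes (4225 and 4259 CPM against 2429 to 3557 CPM in the others); the part of that signal was not tested. Tap1 shares 212 exon bases with Psmb9 on the opposite strand.

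Erap1, Nlrc5 and Tapbpl were the class I members that rose in control cells. Erap1, the aminopeptidase that trims peptides in the endoplasmic reticulum, stood at 119.95, 129.9, 115 and 119.7 CPM unstimulated and 288, 285 and 271 CPM stimulated, 2.32-fold higher (log2 1.21 ± 0.06, adjusted p = 1.12e-10). In deficient cells Erap1 was 112, 126 and 125 CPM and then 250.5, 273 and 291 CPM (log2 1.17 ± 0.07, adjusted p = 5.81e-10). It had the smallest p of all members in both genotypes. Erap1 shares 834 exon bases with Cast on the opposite strand. Nlrc5 stood at 41.2, 51.3, 49.2 and 48.6 CPM and then 83.2, 86.4 and 105 CPM in control cells, 1.92-fold higher (log2 0.94 ± 0.11, adjusted p = 5.14e-06). In deficient cells Nlrc5 was 50.1, 56.8 and 45.4 CPM and then 112, 115 and 87.4 CPM (log2 1.04 ± 0.12, adjusted p = 4.62e-06).

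Per kb, Nlrc5 to Ciita was 0.235 to 0.303 in unstimulated and 0.742 to 1.19 in stimulated libraries, and Nlrc5 rose while Ciita fell in both genotypes. Tapbp, the tapasin gene, changed by 0.14 ± 0.07 in control cells (adjusted p = 0.120) and rose by 0.26 ± 0.08 in deficient cells (adjusted p = 0.00924, and 0.0594 with upper-quartile scaling). Tapbpl, which encodes a second peptide editor, rose by 0.42 ± 0.07 in control cells (adjusted p = 8.19e-05). In deficient cells its change was 0.17 ± 0.08 (adjusted p = 0.0727, and 0.0331 with the animal as a block).

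**Figure D4:**
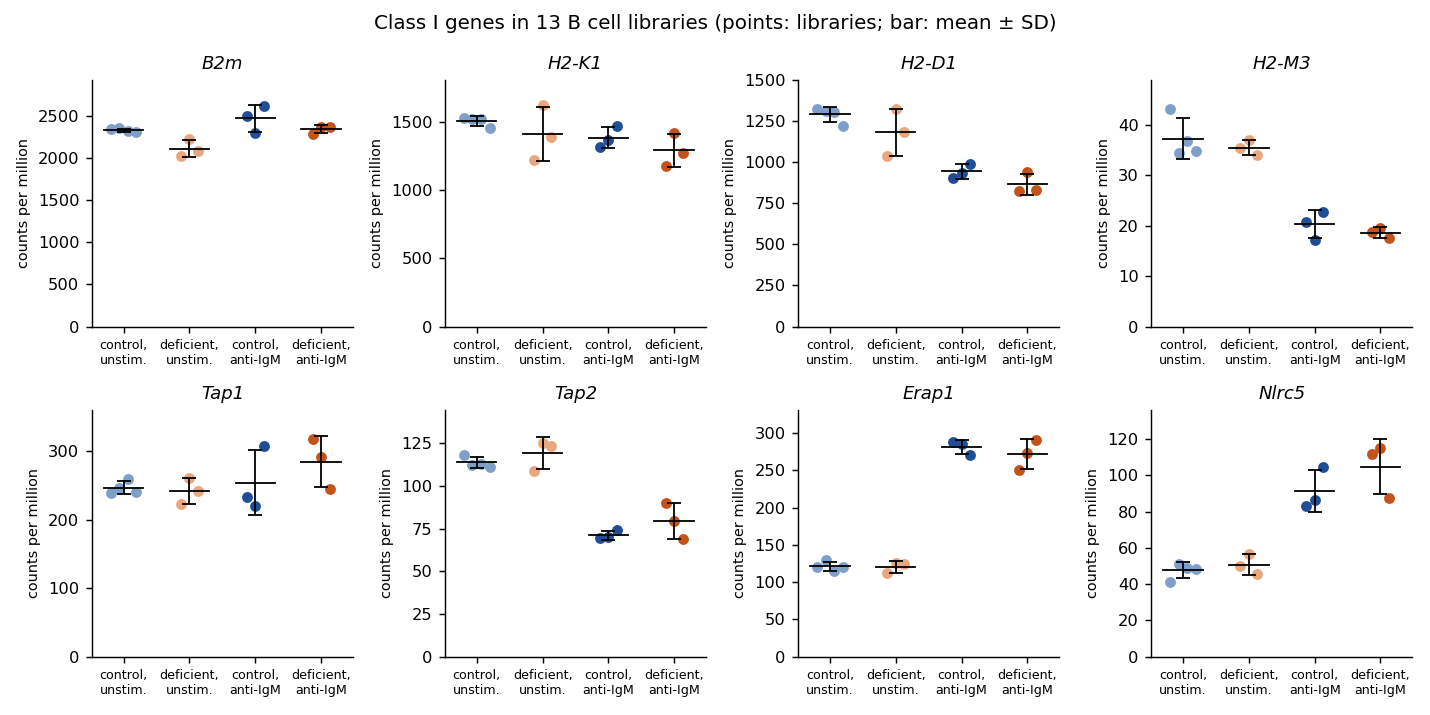
CPM of 8 class I genes in the 13 libraries by group (points, with mean ± SD as lines). H2-D1, H2-M3 and Tap2 are lower and Erap1 and Nlrc5 higher after anti-IgM in both genotypes, while H2-K1 and Tap1 overlap between states.

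The next question was whether loss of Regnase-1 changed these genes. In unstimulated cells 0 of 30 members were called by edgeR, against 0.324% of all genes. At an unadjusted p under 0.05 there was 1 member, B2m (log2 -0.14 ± 0.06, adjusted p = 0.477), and DESeq2 and limma on the deposited log2 values also called 0. B2m was also the single member whose groups did not overlap, 2026 to 2226 CPM in deficient against 2306 to 2354 CPM in control libraries; 8.72% of all genes had groups that did not overlap, 5.58% with deficient lower. Medians were -0.07 for class II, -0.05 for class I and -0.02 for all genes.

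After anti-IgM, 2 class II members were higher and 1 class I member lower in deficient than in control cells, 3 of 30, against 2.01% of all genes (0.751% higher and 1.26% lower). Lgmn stood at 139.7, 134 and 138 CPM in stimulated control libraries 1 to 3 and at 164, 194 and 167 CPM in deficient ones. All 3 deficient libraries lay above the controls, and Lgmn was 1.28-fold higher (137 ± 2.86 against 175 ± 16.3 CPM, SD, n = 3 each; log2 0.35 ± 0.06 SE, edgeR adjusted p = 0.00793). In unstimulated cells the values were 184, 187, 193 and 183 CPM in the 4 control libraries against 184, 206 and 189.9 CPM in the deficient ones, which overlapped.

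Ctss stood at 214, 208 and 237 CPM in stimulated control and 277, 267 and 253 CPM in stimulated deficient libraries, again without overlap. It was 1.21-fold higher (log2 0.28 ± 0.06, edgeR adjusted p = 0.0251). Unstimulated levels were 354, 349, 342 and 328 CPM in the control libraries against 339.9, 348 and 329.7 CPM in the deficient ones. The call was lost without control library 1 (adjusted p = 0.129) or 2 (0.135) or deficient library 2 (0.0890). The myeloid markers summed to 113, 101 and 205 CPM in stimulated control and 198, 97.5 and 87.8 CPM in stimulated deficient libraries. Among these stimulated libraries Ctss was highest in the one with the highest myeloid sum in each genotype, and Lgmn was not. In unstimulated cells Ctss was highest in control library 1 (myeloid sum 182.5 CPM) and deficient library 2 (222 CPM). The highest unstimulated sums were 488 CPM in control library 3, where Lgmn was highest (193 CPM), and 527 CPM in deficient library 1. The part of myeloid cells in both differences was not tested.

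Tapbpl stood at 54.9, 52.6 and 55.4 CPM in stimulated control and 42.8, 45.5 and 42.8 CPM in stimulated deficient libraries. It was 1.24-fold lower (log2 -0.31 ± 0.08, edgeR adjusted p = 0.0486). The unstimulated groups overlapped, at 41.4, 39.5, 36.7 and 44.5 CPM in the control libraries against 38.5, 41.9 and 36.2 CPM in the deficient ones. This call sat at the threshold and was lost when any 1 stimulated library was left out (adjusted p 0.0830 to 0.172). Ciita was higher in all 3 deficient libraries than in any control, 143, 137 and 131 against 126, 110.4 and 98.7 CPM, but was not called (log2 0.29 ± 0.08, adjusted p = 0.0764). Lgmn, Ctss and Ciita were the 3 class II members with deficient libraries all above the controls, against 7.8% of all genes. Ciita passed with DESeq2 (adjusted p = 0.0226), with upper-quartile scaling (0.0304) and without control library 1 (0.0221).

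**Figure D5:**
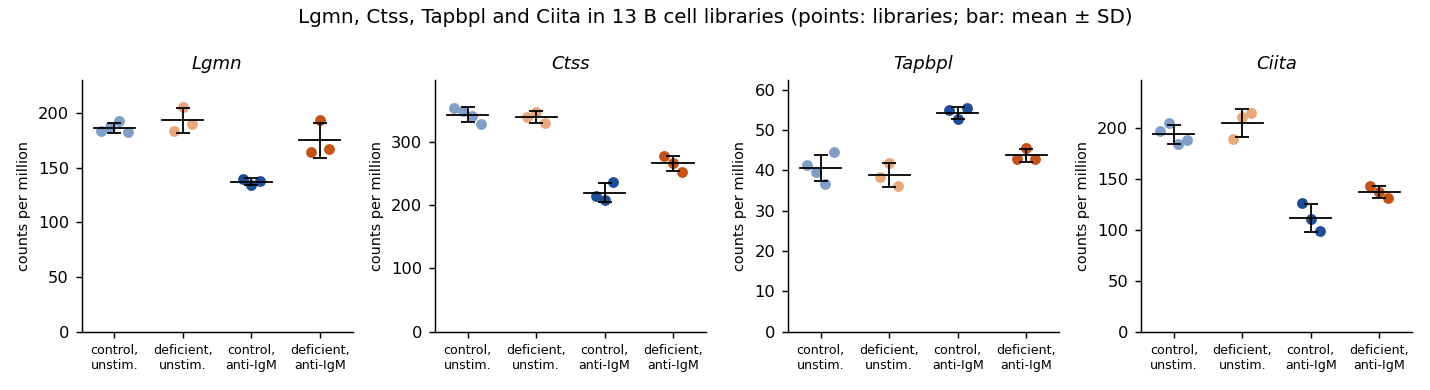
CPM of Lgmn, Ctss, Tapbpl and Ciita in the 13 libraries by group (points, with mean ± SD as lines). Genotypes overlap in unstimulated cells; after anti-IgM the deficient points of Lgmn (164 to 194), Ctss (253 to 277) and Ciita (131 to 143) lie above, and those of Tapbpl (42.8 to 45.5) below, the control points.

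For 5 class II members the stimulated deficient libraries all lay below the controls without a call by edgeR: H2-Aa, H2-Ab1, H2-Eb2, H2-DMb1 and Cd74, with log2 differences of -0.23 to -0.42. DESeq2 called H2-Eb2 (log2 -0.43, adjusted p = 0.0193) and H2-DMb1 (log2 -0.29, adjusted p = 0.0454) lower. The share of all genes with groups apart in this direction was 10%. For 4 of these 5 the lowest library was deficient animal 1, and for H2-DMb1 it was deficient library 3. Without both libraries of animal 1, H2-Aa differed by -0.17 ± 0.09 in place of -0.29 ± 0.12, and the class II median was -0.02 in place of -0.11. The class I median turned from -0.05 to 0.01, and the median of all genes was 0.00 with animal 1. Without animal 1, Lgmn (adjusted p = 0.0026) and Ctss (0.0208) were called, Tapbpl (0.146) was not, and Ifi30 was called lower in deficient cells (log2 -0.31 ± 0.06, adjusted p = 0.00662).

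The difference between the stimulation responses of the genotypes was then tested directly. No member was called by edgeR (0 of 30), and 0.00737% of all genes were. At an unadjusted p under 0.05 there were 3 members, Ctss, Lgmn and Tapbpl, and DESeq2 and limma called 0. With the animal as a block 1 member was called: the fall of Lgmn was smaller in deficient cells by 0.31 ± 0.07 (adjusted p = 0.0437). Per animal, Lgmn changed by -0.39, -0.48 and -0.48 in the control animals against -0.17, -0.09 and -0.18 in the deficient ones on the log2 scale. For Ctss the changes were -0.72, -0.75 and -0.53 in the control animals against -0.29, -0.38 and -0.38 in the deficient ones (adjusted p with block = 0.0574). For Tapbpl they were 0.41, 0.41 and 0.59 against 0.15, 0.12 and 0.24 (adjusted p with block = 0.291). The animals of each genotype did not overlap for 7 members: these 3, H2-Eb1, H2-Eb2, Rfxank and Ifi30. Over the 13015 tested genes with a count in every paired library, 13.7% did not overlap.

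Other genes of the pathway were read from lists of related function. Of 15 genes that supply class I peptides, 7 rose and 4 fell in control cells after anti-IgM (median log2 change -0.07), against 28.5% of all genes higher and 31.8% lower. The proteasome activators Psme3 (1.55 ± 0.06) and Psme2 (1.25 ± 0.05) and the endoplasmic reticulum chaperones Hspa5 (1.47 ± 0.05) and Canx (0.86 ± 0.05) rose. The immunoproteasome subunits Psmb8 (-0.87 ± 0.08), Psmb10 (-0.86 ± 0.10) and Psmb9 (-0.45 ± 0.15) fell, as did the aminopeptidase Lnpep (-0.95 ± 0.08). In deficient cells 7 rose and 4 fell, against 28.3% and 29.6% of all genes. Psmb9 was not called there (-0.31 ± 0.16), and Nrd1, a metallopeptidase, was called lower (-0.15 ± 0.05).

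Of 17 genes with a row that act in class II processing and trafficking, 5 rose and 7 fell in control cells (median -0.33), and 5 and 7 in deficient cells (median -0.32), against the same shares of all genes. Cd83, which keeps class II molecules at the surface, rose most (1.82 ± 0.07), with Arl8b (0.81 ± 0.05) and Rab7 (0.59 ± 0.05), small GTPases of lysosomes and late endosomes, and the lysosomal membrane protein Lamp1 (0.29 ± 0.06). Cathepsin H (Ctsh, -0.91 ± 0.08), the adaptor subunit Ap3b1 (-0.61 ± 0.06), the tetraspanin Cd9 (-0.59 ± 0.07) and acid ceramidase (Asah1, -0.74 ± 0.13) fell. Not every protease of the list fell: cathepsin C (Ctsc), named after its values were seen, rose in deficient cells (0.22 ± 0.07, edgeR adjusted p = 0.015). Between genotypes the stimulated groups lay apart for 7 of the 17, 3 with deficient higher and 4 with deficient lower, against 17.8% of all genes.

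Of 23 regulators of MHC genes, 8 rose and 11 fell in control cells, and 9 rose and 10 fell in deficient cells, again against 28.5% higher and 31.8% lower, and 28.3% and 29.6%, of all genes. Irf4 (2.60 ± 0.13), Nfkb1 (1.62 ± 0.08), Irf8 (1.45 ± 0.05) and Hdac2 (0.91 ± 0.07) rose. The repressor Irf2 (-1.53 ± 0.09), the interferon gamma receptor chain Ifngr2 (-1.25 ± 0.08), the coactivator Ep300 (-1.02 ± 0.07) and the B cell factor Pax5 (-1.13 ± 0.10) fell. Between genotypes the stimulated groups lay apart for 11 of the 23, 2 with deficient higher and 9 with deficient lower, against 7.8% and 10% of all genes. In the stimulated state 1 regulator was called between genotypes, the histone deacetylase Hdac1. It stood at 117, 119 and 116 CPM in the control libraries against 137, 140.0 and 139 CPM in the deficient ones (log2 0.24 ± 0.06, edgeR adjusted p = 0.0468).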

How the data were processed

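RNA-seq counts of 13 libraries were used, with 4 control unstimulated libraries and 3 in each other group. The authors deposited counts per gene symbol; the submitters' processing notes name TopHat, HTSeq, DESeq2 and mm10. Log2 values per library, likewise deposited by the authors, followed log2 counts with slopes of 0.993 to 0.997; their transformation, the strand setting and the treatment of reads matching several genes are not given in the sources used here. The labels' protocols say that B cells were isolated by CD43 bead depletion and RNA was taken with TRIzol. Nothing in the labels says that libraries are separate animals, so p-values measure the spread between these samples, which may be technical.

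The members and all gene lists were chosen with earlier results of these data known. The tables held 23337 symbols, of which 1 lacked a value and was dropped. Counts were fitted with edgeR 4.0.16 (R 4.3.3): filterByExpr with a minimum count of 10, TMM factors, and 1 robust quasi-likelihood model of the 4 group means over the 13 libraries, with 13574 genes tested and 9 residual degrees of freedom (common biological coefficient of variation 0.175). Calls are at a Benjamini-Hochberg adjusted p under 0.05 over all genes. Levels are TMM-scaled CPM, SE is the log2 change over the root of F, and floors cover counting error only. The fit was tested on simulated data. Alternatives were DESeq2 1.42.0, edgeR with upper-quartile factors or DESeq2's size factors, no filter, a stricter one (1 CPM in 3 libraries), the animal block, only the groups compared, limma 3.58.1 on the deposited log2 values, leaving out each library and, added after seeing the data, leaving out both libraries of deficient animal 1.

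Named genes were all members. Values per library were given for members called between genotypes, for Ciita, Nlrc5, Cd74, B2m, H2-Aa, H2-Ab1, H2-Eb1, H2-D1 and H2-K1, and for the 3 members of each class with the smallest p per stimulation comparison. From the other pathway lists the 4 smallest p in each direction in control cells were named, with those called between genotypes. Motifs were chosen after the promoter windows were read. Coordinates are mm10 (GRCm38).

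No pair of replicates agreed within sampling noise (chi-square per gene 8.22 to 36.1). A pairing check over 9658 genes set unstimulated against stimulated libraries of 1 number, as deviations from their group means. Pearson's r was 0.49 to 0.73 for the 3 control pairs and 0.62 to 0.83 for the deficient ones, all over 0.1. Pairs of unlike numbers ran from -0.49 to -0.09 in control and from -0.64 to 0.11 in deficient cells. Deficient unstimulated library 3 with stimulated library 2 (0.11) thus also lay over 0.1, though below every like-numbered pair. Each number was taken as 1 animal per genotype. The animal block leaves 4 residual degrees of freedom, in the stimulation comparisons and their difference. For the genotype comparisons the block was instead the library number, shared by both genotypes.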

Additional observations from a re-analysis of the deposited data

Results flagged for a closer look

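In unstimulated control cells, 1 of the 4 libraries stood far from the others for 3 members by Dixon's criterion for a lone value, out of 30 members examined, where chance flags about 1 in 20. H2-Ob was 867.5 CPM in library 1 against 693 to 698 CPM in the other 3. Rfxank was 27.7 CPM in library 4 against 29.2 to 29.5 CPM, and H2-K1 was 1456 CPM in library 4 against 1518 to 1529.6 CPM.

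H2-Eb2 moved in opposite directions by genotype: the control animals changed by 0.05, 0.14 and 0.06 and the deficient animals by -0.10, -0.19 and -0.20 on the log2 scale. The difference of responses was -0.325 ± 0.18 (edgeR adjusted p = 0.9997) and -0.24 ± 0.07 with the animal as a block (adjusted p = 0.203).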

How the results depend on the processing

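No call of a member reversed its direction, but some class medians near 0 changed sign. When each library was left out, the class I median of the stimulation response in control cells ran from -0.14 to 0.08. Between genotypes in unstimulated cells the medians ran from -0.11 to 0.02 for class II and from -0.10 to 0.02 for class I. After anti-IgM the class I median between genotypes ran from -0.08 to 0.01. The 16 class II and 7 class I calls of the stimulation response in control cells kept their direction and side of the threshold in 345 of 345 refits of single members. In deficient cells 299 of 315 did, and the other 16 lost the call (H2-Aa, Rfx5, B2m and Tapbp). For the genotype comparison after anti-IgM 43 of 60 refits of Lgmn, Ctss, Tapbpl and Ciita kept their side, 14 lost the call and 3 gained one (Ciita); Lgmn was called in each of the 15 refits, at adjusted p 0.000331 to 0.0422. For that comparison DESeq2 called 5 class II members and a fit of only the groups compared called 1, and leaving out each library gave 1 to 2. The single class I call, Tapbpl, became 0 with upper-quartile factors, with no filter, with only the groups compared and without deficient animal 1, and 0 when each stimulated library was left out.

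Over all genes, calls between genotypes were 44 in unstimulated cells (17 higher, 27 lower), 41 with DESeq2's size factors in edgeR (21 higher), 70 with upper-quartile factors (36 higher), 160 with DESeq2, 50 with only the groups compared (31 higher), 74 without deficient animal 1 and 17 to 46 when each library was left out. In stimulated cells they were 273, 539 with DESeq2 and 129 to 230 when each library was left out. The difference of responses had 1 call, 12 with upper-quartile factors, 38 with DESeq2, 10 with no filter, 68 with the animal as a replicate block (1 class II member, Lgmn), 13 without deficient animal 1 and 1 to 10 when each library was left out. Of members not called in the stimulation response, H2-Ab1 and H2-Eb1 in deficient cells each gained a call in 7 alternatives, among them DESeq2 and limma. Lgmn and Tapbpl in deficient cells each gained a call in 5. B2m and Tapbp in control cells and Tap1 in deficient cells each gained a call in 4. The cause was not tested. The block changed no call but those given in the report. Same-numbered libraries of different genotypes correlated negatively (r -0.06 to -0.59), and the main fit did not pair them. The block refit of the genotype comparisons did, with the library number shared by both genotypes as the block. With 3 libraries a group, small changes of the rarer members, such as H2-T22 at 11 to 33 counts, were not detectable.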

Other observations

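Of 12 other class I-like genes tested, 1 rose and 5 fell in control cells after anti-IgM, against 28.5% of all genes higher and 31.8% lower. In deficient cells 1 rose and 4 fell, against 28.3% and 29.6%. Fcgrt, the neonatal Fc receptor heavy chain, fell by 2.95 ± 0.36 on the log2 scale in control cells, Mr1, which presents vitamin B metabolites, by 1.64 ± 0.26, and Cd1d1, which presents lipids, by 1.36 ± 0.27. H2-T24 rose by 1.05 ± 0.23.

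Of 28 interferon response genes, 24 rose and 1 (Gbp3, -0.96 ± 0.18) fell in control cells, against 28.5% of all genes higher and 31.8% lower. The same numbers held in deficient cells, against 28.3% and 29.6%. Median log2 changes were 2.13 in control and 2.41 in deficient cells, against -0.13 and -0.11 over all genes tested. Igtp (1.80 ± 0.15), Xaf1 (2.06 ± 0.18), Irgm1 (2.15 ± 0.17) and Trim30a (1.65 ± 0.15) had the smallest p. Per library the list summed to 2520, 2429 and 4225 CPM in stimulated control and 4259, 3557 and 3052 CPM in stimulated deficient libraries. These sums overlapped between genotypes, and 0 of the 28 genes were called by edgeR, against 2.01% of all genes. The log2 difference, deficient against control, was above 0 for all 28, with a median of 0.26 against 0.00 over all genes. The stimulated groups overlapped for all 28, while 17.8% of all genes had groups that did not overlap. Deficient animal 1 had the highest sum (4259 CPM), and this list is given only with that animal. How far the shared direction rests on it was not tested.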
